A study of Danio rerio with 31 samples.

Results

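The semaphorins, ephrins, Slits and netrins and their receptors form the classical axon guidance system, and their transcripts were followed here in whole brains of adult zebrafish. Members were chosen by gene symbol: semaphorins of classes 3 to 7, plexins, neuropilins 1 and 2, ephrins A and B, Eph receptors A and B, Slits, Robo receptors, netrins, DCC and the Unc5 receptors. The rule found 99 of 32520 gene IDs. One of them, UNC50, shares only the first letters of the Unc5 symbols and is not a netrin receptor, which leaves 98 guidance genes, of which 53 are ligands and 45 are receptors. The symbol table drops many zebrafish paralog suffixes, and 17 symbols were each carried by 2 member IDs. These are written with the last digits of the Ensembl ID (EPHA4_054454 is ENSDARG00000054454), and which paralog each one is was not resolved.

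The study exposed zebrafish of the TU line to a mixture of PCBs and PBDEs, persistent chlorinated and brominated pollutants, and also took their F2 offspring, which were not exposed themselves. The groups were 6 F0 males that were treated and 6 F0 control males, 4 F2 females of the treated line and 4 of the control line, and 2 F2 males of the treated line and 2 of the control line. All 24 fish were adults. Doses, exposure times, tanks and families of the fish are not in the labels used here, so fish of an arm that share any of these cannot be told apart from the exposure or the descent, and p-values measure the spread between these fish.

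Guidance ligands are secreted or stand on a cell's surface, and the growth cone of an axon reads them through its receptors as attraction or repulsion. Semaphorins signal through plexins, with neuropilins as co-receptors for most class 3 semaphorins; ephrins bind Eph receptor kinases by cell contact; Slits repel through Robo receptors; netrins attract through DCC and repel through Unc5 receptors. In the adult brain the same molecules are known from synapses, blood vessels and glia. A whole brain mixes all of these cells, so fewer cells of a type and less RNA per cell cannot be told apart in any value below.

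Depth was 12.2 to 34.1 M reads in genes per fish. Levels are CPM (read counts set to a common library size), adjusted between the 24 fish by TMM, which evens out differences in library composition. CPM depends on gene length and is compared only between fish, not between genes. The neuron marker list held 20 IDs with none at 0. It summed to 8833.1 to 9583.1 CPM in treated F0 males and 8606.2 to 10186.7 CPM in F0 control males. Of its 19 tested IDs, 3 were higher and 4 lower in treated F0 males (edgeR adjusted p below 0.05). That was 36.8%, against 11.4% of all genes tested. Aligned reads that fell in no annotated gene, the no-feature share, were 16.56 to 19.52% in treated F0 males and 19.86 to 21.35% in F0 control males, with no overlap (exact two-sided permutation test, p = 0.00216, adjusted p = 0.104 over 48 library measures). They were also lower in F2 females of the treated line, at 18.66 to 20.81%, than in those of the control line, at 21.58 to 23.46% (exact permutation test, p = 0.0286, adjusted p = 0.252). Treated male 16, with the lowest share, and control males 9 and 33, with photoreceptor markers at 26.9 and 18.0 CPM in sum against 404.6 to 711.2 CPM in the other F0 control males, stood apart. These males were picked by their values in these data. Low photoreceptor sums also occurred in F2. They ran from 33.3 to 1324.7 CPM in females of the treated line and from 23.8 to 433.9 CPM in those of the control line. F2 males had 27.8 and 740.4 CPM in the treated line and 29.0 and 508.0 CPM in the control line.

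In treated F0 males 5 members were higher and 7 were lower than in F0 control males. The higher ones were ROBO1, SEMA6A, EPHB3_031548, EPHA4_054454 and NRP2_096546, of which 4 are receptors. The lower ones were the ligands sema4ab, NTN1_105112, EFNA5 and EFNA1_030326 and the receptors PLXNC1, NRP1 and nrp1b. These 12 were 12.8% of the 94 members tested, against 11.4% of all 18057 genes tested, so members passed about as often as genes in general (edgeR quasi-likelihood test, Benjamini-Hochberg adjusted p below 0.05). A further 82 members did not pass, and 5 were too low to test: efna4, efna5b, ntn5, sema4aa and plxnb2a.3. None of the 12 passed once the no-feature share entered the fit, and only EFNA1_030326 passed without the 3 males that stood apart (edgeR adjusted p = 0.0498). The latter fit held fewer fish. In it the highest log2 change of a Robo receptor was 0.41, against 0.43 with all F0 males. The lowest log2 change of a neuropilin was -0.80, against -1.17. The no-feature share does not overlap between the arms of F0 males, so that share and exposure cannot be told apart.

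Among the receptors that were higher, ROBO1, a receptor for Slits, had the lowest p-value. ROBO1 lay at 115.4 to 140.4 CPM in treated F0 males (median 129.7) and at 83.1 to 103.7 CPM in F0 control males (median 98.1). Every treated male was above every control male. The log2 change was 0.43 ± 0.08 (SE, n = 6 and 6; edgeR adjusted p = 0.015), and it kept its call with any 1 fish left out, with adjusted p up to 0.0409. SEMA6A and sema4ab did so too, while the other 9 kept theirs in 2 to 10 of the 12 fits that left out 1 fish. The other 3 Robo receptors were not called, and the log2 changes of all 4 ran from 0.07 to 0.43. They ran from -0.17 to 0.27 with the no-feature share in the fit, with 1 of 4 below 0, and that of ROBO1 was then 0.23 ± 0.11.

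EPHA4_054454 and EPHB3_031548 are Eph receptor kinases, which ephrins on neighbouring cells activate. EPHA4_054454 lay at 282.7 to 384.6 CPM in treated F0 males (median 311.6) and at 240.8 to 282.5 CPM in F0 control males (median 265.2). The arms only just failed to meet, and the log2 change was 0.30 ± 0.09 (SE, n = 6 and 6; edgeR adjusted p = 0.0364). EPHB3_031548 lay at 196.1 to 250.5 CPM in treated F0 males (median 216.7) and at 152.3 to 201.5 CPM in F0 control males (median 180.1). Its arms overlapped, with a log2 change of 0.30 ± 0.08 (SE; edgeR adjusted p = 0.0353). The second IDs of both symbols had negative values that did not pass: EPHA4_010767 a log2 change of -0.47 ± 0.23 and EPHB3_103576 one of -0.77 ± 0.60. Whether the IDs of a symbol differ in response was not tested.

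The neuropilins, co-receptors for class 3 semaphorins and for vascular growth factors, split. NRP1 lay at 27.1 to 67.7 CPM in treated F0 males (median 63.8) and at 77.8 to 91.4 CPM in F0 control males (median 84.9). All treated males were below all controls, and treated male 16 was the lowest. The log2 change of NRP1 was -0.57 ± 0.17 (SE, n = 6 and 6; edgeR adjusted p = 0.0424). The other neuropilin 1 gene, nrp1b, lay at 0.503 to 3.8 CPM in treated F0 males (median 2.19) and at 3.75 to 6.5 CPM in F0 control males (median 4.79), with a log2 change of -1.17 ± 0.36 (SE; edgeR adjusted p = 0.0476). With the no-feature share in the fit, the log2 changes of NRP1 and nrp1b were 0.05 and 0.02. NRP2_096546 went the other way, at 87.1 to 109.6 CPM in treated F0 males (median 91.2) and 72.3 to 88.3 CPM in F0 control males (median 80.1). Its log2 change was 0.27 ± 0.08 (SE; edgeR adjusted p = 0.0462), close to the 0.25 ± 0.10 of the second NRP2 ID, which did not pass. The endothelial marker list, 14 IDs with none at 0, summed to 147.0 to 199.9 CPM in treated F0 males and 121.4 to 175.1 CPM in F0 control males (exact permutation test, p = 0.0368). Radial glia markers, 17 IDs with none at 0, of which 16 were tested and 4 called higher against 0 lower, summed to 6377.6 to 8231.9 CPM in treated F0 males and 5262.4 to 6929.7 CPM in F0 control males (exact permutation test, p = 0.0346). Markers of fibroblasts and meninges, 14 IDs with none at 0 and 2 called higher against 0 lower, summed to 165.1 to 202.3 CPM in treated F0 males and 139.6 to 181.9 CPM in F0 control males (exact permutation test, p = 0.0238). Called were 7.14% of the endothelial, 25.0% of the radial glia and 14.3% of the fibroblast and meninges markers tested, against 11.4% of all genes. Each of these 3 sums had an adjusted p of 0.252 over the 48 library measures. Median log2 changes of the endothelial, radial glia and fibroblast and meninges markers were 0.054, 0.289 and 0.184. With the no-feature share in the fit they were 0.072, 0.025 and -0.121, and 0 of these markers were called. Mean sums of olfactory epithelium and microglia markers were also higher in treated F0 males (exact permutation test, p = 0.0346 and 0.0476, adjusted p = 0.252 and 0.254). Only 4 of the 7 olfactory IDs were tested, with 1 called higher (25.0%). Of 20 microglia IDs 13 were tested, with 1 called higher (7.69%). The median log2 change of the microglia markers was -0.183, opposite in sign to the change of their sum. The part of these lists in the values of the members was not tested.

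**Figure D1:**
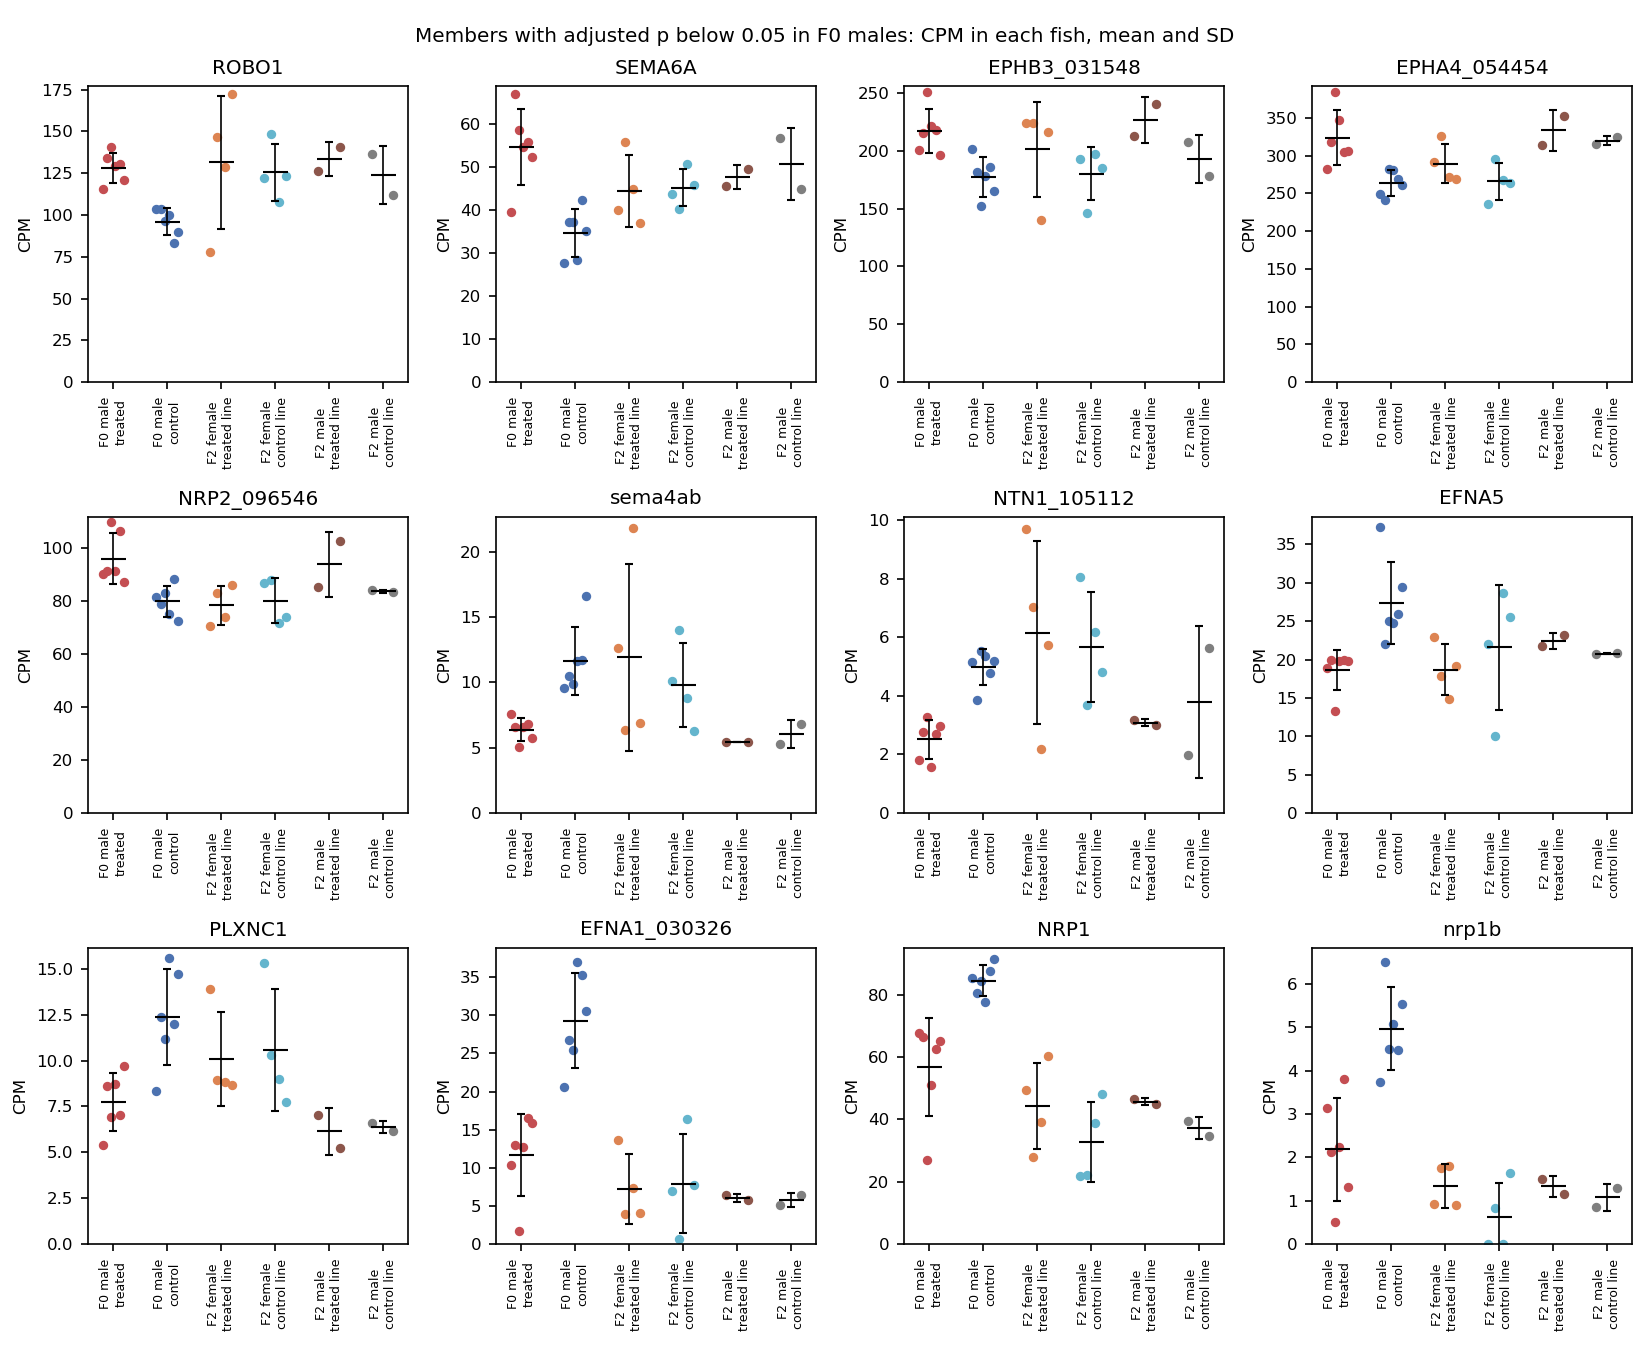
CPM (vertical axes from 0) of the 12 members with adjusted p below 0.05 in F0 males, in each fish of the 6 groups (points), with the mean and SD (bars). In the first 5 panels treated F0 males are higher than F0 control males, in the other 7 lower; the F2 lines overlap in these panels except where 2 males face 2 males.

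A pair of semaphorins passed, in opposite directions. SEMA6A, a transmembrane semaphorin that signals through class A plexins, lay at 39.7 to 67.0 CPM in treated F0 males (median 55.3) and at 27.8 to 42.4 CPM in F0 control males (median 36.2). Only 1 treated male was inside the control range, and the log2 change was 0.66 ± 0.13 (SE, n = 6 and 6; edgeR adjusted p = 0.0151). The class 4 semaphorin sema4ab lay at 5.03 to 7.55 CPM in treated F0 males (median 6.57) and at 9.6 to 16.6 CPM in F0 control males (median 11.0). Its arms did not overlap, and the log2 change was -0.86 ± 0.17 (SE; edgeR adjusted p = 0.0151). Of the other 27 semaphorins tested none passed, and the median log2 change of all 29 was -0.34. PLXNC1, a plexin known in mammals as the receptor of semaphorin 7A, lay at 5.41 to 9.72 CPM in treated F0 males (median 7.83) and at 8.34 to 15.6 CPM in F0 control males (median 12.2), a log2 change of -0.67 ± 0.18 (SE; edgeR adjusted p = 0.0348). The other 12 plexins tested did not pass.

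Among the ephrins, EFNA1_030326 had the most negative log2 change of the 12. It lay at 1.76 to 16.5 CPM in treated F0 males (median 12.8) and at 20.6 to 37.0 CPM in F0 control males (median 28.7). No treated male reached the lowest control, and the log2 change was -1.32 ± 0.37 (SE, n = 6 and 6; edgeR adjusted p = 0.0397). With the no-feature share in the fit it was 0.21 ± 0.50. The second EFNA1 ID had a log2 change of -0.09 ± 0.23. EFNA5, a ligand that patterns retinal axons in the midbrain, lay at 13.3 to 20.0 CPM in treated F0 males (median 19.8) and at 22.0 to 37.2 CPM in F0 control males (median 25.5), without overlap. Its log2 change was -0.55 ± 0.14 (SE; edgeR adjusted p = 0.0285). None of the 5 ephrins B passed; EFNB1 had the lowest p-value among them, with a log2 change of -0.71 ± 0.36 (edgeR adjusted p = 0.2).

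The netrin NTN1_105112 lay at 1.56 to 3.27 CPM in treated F0 males (median 2.73) and at 3.87 to 5.52 CPM in F0 control males (median 5.19). The arms did not overlap, and the log2 change was -0.98 ± 0.23 (SE, n = 6 and 6; edgeR adjusted p = 0.0217). It was -1.26 ± 0.41 with the no-feature share in the fit, and -1.13 without the 3 males that stood apart (adjusted p = 0.0671). The second NTN1 ID had a log2 change of -0.24 ± 0.20. No Dcc or Unc5 receptor passed. UNC5C_087341 stood just outside the threshold, at 0.56 ± 0.17 (edgeR adjusted p = 0.0504), and nrp1b just inside it. None of the 4 Slits passed; SLIT1_044954 had the lowest p-value, with a log2 change of -0.58 ± 0.29 (edgeR adjusted p = 0.207).

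CPM of treated and control F0 males did not overlap for 9 of the 94 members tested, 9.57%, against 5.54% of all genes tested. Of the 12 called members 7, or 58.3%, did not overlap, as did 833 of all 2060 called genes, or 40.4%. Ligands had a median log2 change of -0.33 over 49 tested, with 37 below 0, and receptors one of -0.02 over 44 tested, with 22 below 0. The median was -0.55 in ephrins A, -0.55 in netrins, -0.25 in ephrins B, -0.19 in plexins, 0.19 in Slits and 0.19 in Robo receptors. It was -0.34 in semaphorins, -0.16 in neuropilins, -0.08 in Eph A receptors, 0.01 in Eph B receptors and 0.07 in Dcc and Unc5 receptors. Over all 94 members it was -0.21, against -0.02 over all genes tested. Below 0 lay 62.8% of members and 51.4% of all genes tested. With the no-feature share in the fit the median of the members was 0.09, that of ligands 0.05 and that of receptors 0.12. The families' medians were then -0.05 in ephrins A, -0.21 in netrins, 0.41 in ephrins B, 0.14 in plexins, 0.21 in Slits and 0.24 in Robo receptors. They were -0.001 in semaphorins, 0.06 in neuropilins, 0.06 in Eph A receptors, 0.15 in Eph B receptors and -0.24 in Dcc and Unc5 receptors. Ephrins B, plexins, neuropilins, Eph A receptors and the Dcc and Unc5 receptors were then on the other side of 0.

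**Figure D2:**
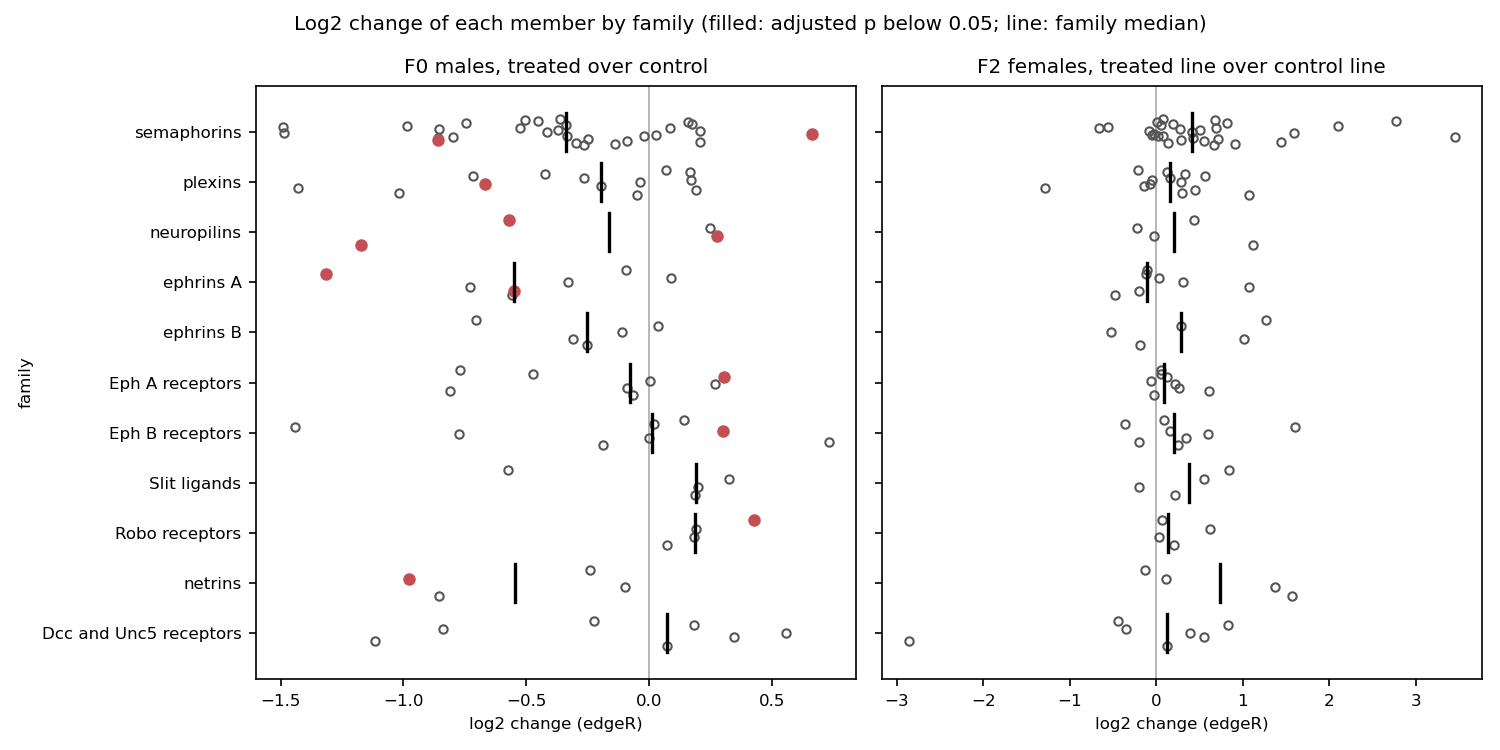
Log2 change (horizontal axes, edgeR, each panel on its own scale) of each tested member by family, in treated over control F0 males (left) and treated over control line F2 females (right). Filled points have adjusted p below 0.05, and vertical lines are family medians, which run from -0.55 to 0.19 in F0 males; no point is filled in F2 females.

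The F0 values moved with read abundance. The 33 members with a mean below 5 CPM had a median log2 change of -0.73, the 29 from 5 to below 30 CPM one of -0.30, and the 32 at 30 CPM or more one of 0.05. All genes of these classes had medians of -0.18, -0.04 and 0.13. With the no-feature share in the fit the medians of the members were -0.13, 0.19 and 0.09, which no longer followed the order of the classes, and those of all genes 0.03, 0.02 and 0.04. The 5 members that were higher all lay in the top class, with 1 of those that were lower, NRP1. These 6 were 18.8% of its members, against 23.7% of all genes of that class; in the lower classes 6.06 and 13.8% of members were called, against 2.37 and 9.84% of genes. Read abundance reflects gene length as well as expression, and its part in the family medians was not tested.

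**Figure D3:**
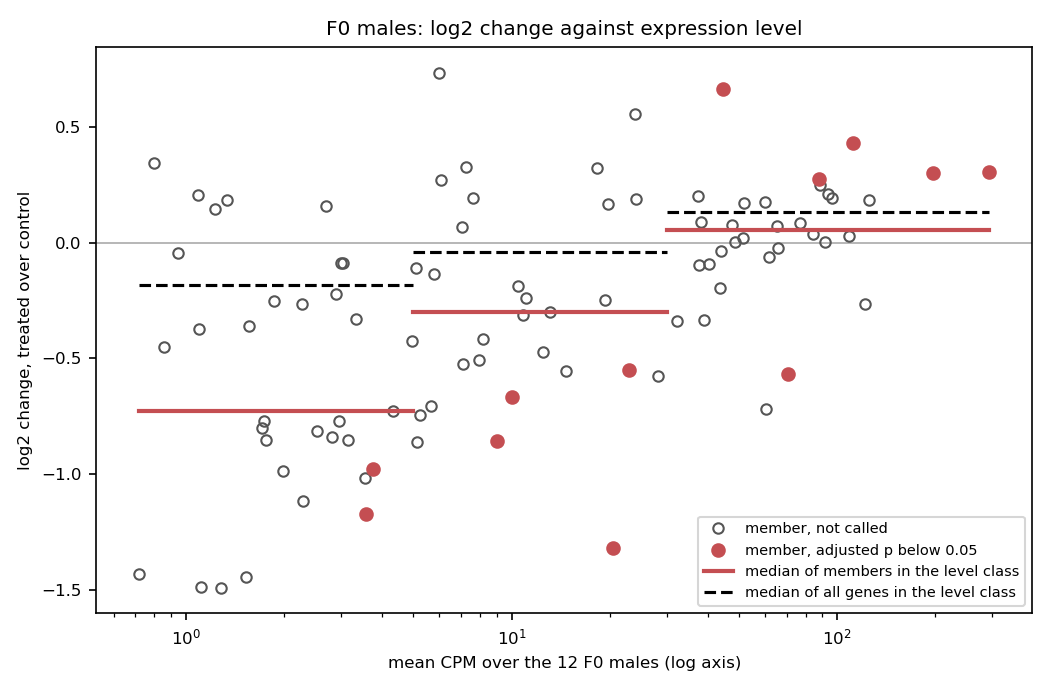
Log2 change of treated over control F0 males (vertical axis) against mean CPM over the 12 F0 males (log horizontal axis) for each tested member; filled points have adjusted p below 0.05. Solid lines are the medians of members below 5, from 5 to 30 and from 30 CPM, at -0.73, -0.30 and 0.05, and dashed lines those of all genes.

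The mean level of the 97 guidance genes that passed the filter over all fish was taken in each fish, on the log2(CPM + 0.5) scale and relative to each gene's mean over the 24 fish. It averaged 0.06 ± 0.18 in treated F0 males and 0.33 ± 0.09 in F0 control males (SD, n = 6 each). Treated male 16 was lowest of the F0 fish at -0.25, and the other treated males lay at 0.01 to 0.23, against 0.17 to 0.40 in F0 control males. It averaged -0.13 ± 0.16 in F2 females of the treated line and -0.36 ± 0.30 in those of the control line (SD, n = 4 each). Within the F2 females the control line, with the higher no-feature share, had the lower mean level. In F0 males the arm with the higher share had the higher one, and the part of the share in this level was not tested. The mean level averaged -0.02 ± 0.08 in F2 males of the treated line and -0.17 ± 0.11 in those of the control line (SD, n = 2 each). The same mean over all 21082 genes was -0.08 to 0.08 in treated F0 males and 0.08 to 0.12 in F0 control males. Over all genes F2 females of the treated line averaged -0.13 ± 0.12 and those of the control line -0.07 ± 0.14. The lines of F2 females overlapped over all genes, at -0.235 to -0.007 and -0.258 to 0.043. They also overlapped in the guidance genes, at -0.341 to 0.039 and -0.704 to -0.082. Over all genes F2 males of the treated line averaged 0.01 ± 0.02 and those of the control line -0.01 ± 0.03.

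**Figure D4:**
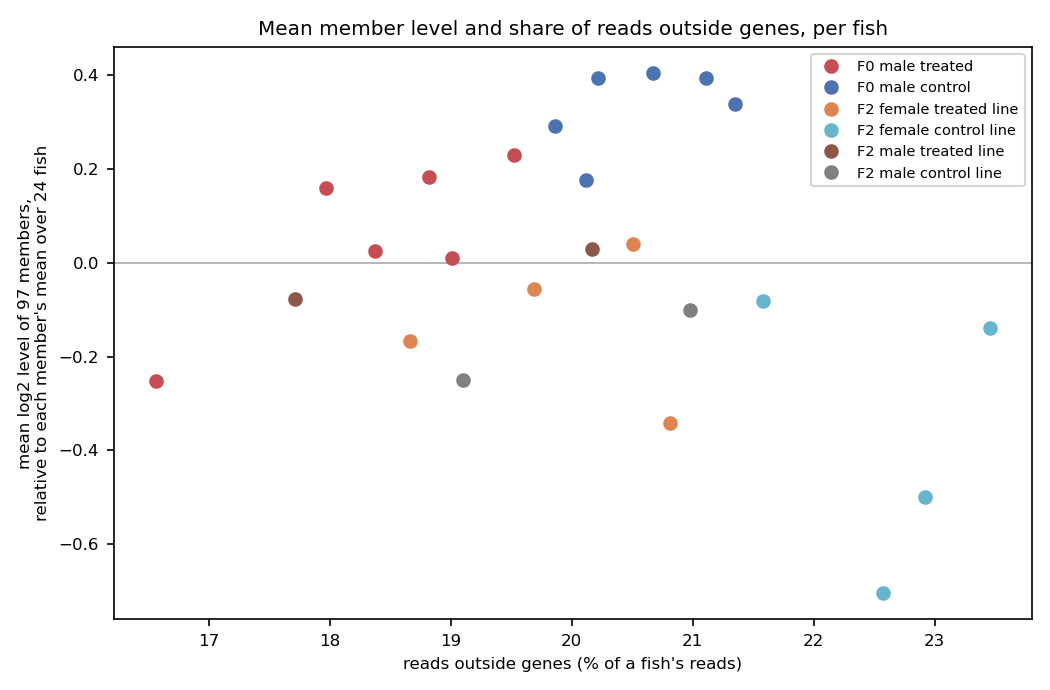
Mean log2 level of 97 guidance genes in each of the 24 fish, relative to each gene's mean (vertical axis), against the percentage of reads in no annotated gene (horizontal axis). F0 control males lie at 0.17 to 0.40 and treated male 16 at -0.25 with the lowest share, 16.56%; F2 females of the control line combine the highest shares with values down to -0.70.

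No member passed in the F2 lines. In F2 females, treated over control line, 0 of 94 members passed, as did 0.0% of 19463 genes (edgeR), with 3 members and 1489 genes at an unadjusted p below 0.05; DESeq2 called 34 genes and 0 members. SEMA4C, a class 4 semaphorin, had the lowest p-value, with 62.5, 67.1, 41.1 and 82.8 CPM in F2 females of the treated line and 31.5, 28.3, 45.7 and 51.2 CPM in those of the control line. The lines overlapped, and the log2 change was 0.69 ± 0.22 (SE, n = 4 and 4; edgeR adjusted p = 0.472), or 0.18 ± 0.32 with the no-feature share in the fit. ROBO2 had 71.3, 59.9, 40.6 and 104.9 CPM in F2 females of the treated line and 34.8, 40.1, 43.6 and 61.7 CPM in those of the control line, a log2 change of 0.62 ± 0.26 (edgeR adjusted p = 0.619). With the no-feature share in the fit it was -0.31 ± 0.29. That share does not overlap between the lines of F2 females, so share and line cannot be told apart in these fits. The Eph receptor gene ephb4a, whose product marks veins, had 50.8, 47.2, 61.6 and 48.4 CPM in F2 females of the treated line and 34.3, 39.3, 48.0 and 42.1 CPM in those of the control line, a log2 change of 0.35 ± 0.16 (edgeR adjusted p = 0.65). The median log2 change of members was 0.20, against -0.02 over all genes, and 66 of 94 lay above 0. Below 0 lay 29.8% of members, against 52.0% of all genes tested. The median standard error of a member's log2 change was 0.47 here and 0.23 in F0 males. The lowest p-values of the other families belonged to UNC5D_061541, EPHA4_054454, SLIT1_044954, efna3a, EFNB1, NTN4, NRP1 and PLXNB1_075821, at log2 changes of -2.86, 0.13, 0.84, -0.48, 1.27, 1.37, 0.43 and 0.29 (edgeR adjusted p 0.657 to 0.913). UNC5D_061541 had a standard error of 1.4 and EFNB1 one of 0.752. The second IDs UNC5D_092722, EPHA4_010767, SLIT1_099446 and PLXNB1_017211 were at 0.126, 0.058, 0.548 and -0.05. UNC5D_061541 had few reads, at 0.0, 0.703, 0.0 and 0.238 CPM in the treated line and 1.32, 3.12, 1.53 and 0.825 CPM in the control line. The log2 changes of NRP1 and PLXNB1_075821 were 0.11 ± 0.41 and -0.01 ± 0.38 with the no-feature share in the fit. In that fit NTN4 rose to 2.199 ± 0.881, and UNC5D_061541 was at -3.643 ± 2.74. EPHA4_054454, SLIT1_044954, efna3a and EFNB1 were then at 0.088, 0.802, -0.425 and 0.957, and ephb4a was at 0.325 ± 0.263.

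In F2 males, 2 against 2, 0 of 94 members and 0.0% of 19463 genes passed (edgeR), with 1 member and 272 genes at an unadjusted p below 0.05; DESeq2 called 6 genes and 0 members. EPHA6 had the lowest p-value, with 82.7 and 102.8 CPM in F2 males of the treated line and 69.6 and 68.2 CPM in those of the control line (log2 change 0.43 ± 0.19; edgeR adjusted p = 1.0). SLIT3 had 14.4 and 23.4 CPM in F2 males of the treated line and 25.8 and 27.8 CPM in those of the control line (log2 change -0.51 ± 0.33). NTN1_022531 had 8.46 and 9.2 CPM in F2 males of the treated line and 9.85 and 15.6 CPM in those of the control line (log2 change -0.53 ± 0.37). None of these 3 passed. The lowest p-values of the other families belonged to UNC5D_061541, EPHB3_031548, ROBO2, efna3a, EFNB1, NRP2_096546, plxnb2a.1 and SEMA4C. Their log2 changes were 1.15, 0.23, 0.27, -0.42, 0.59, 0.17, 0.28 and 0.37, with standard errors of 1.84 for UNC5D_061541 and 1.056 for EFNB1. That of ROBO2 was -0.12 with the no-feature share in the fit. The second IDs NTN1_105112, UNC5D_092722, EPHB3_103576 and NRP2_038446 were at -0.3, -0.046, -0.286 and 0.143 without it. With both sexes in one fit, 0 of 94 members and 0.0% of 19463 genes passed (edgeR), with 5 members and 1496 genes at an unadjusted p below 0.05; DESeq2 called 61 genes and 0 members. SEMA4C again had the lowest p-value, at a log2 change of 0.58 ± 0.17 (SE, 6 fish a line; edgeR adjusted p = 0.377), followed by NTN4 at 1.32 ± 0.52 and ROBO2 at 0.50 ± 0.21. SEMA4C was at 0.17 ± 0.23 and ROBO2 at -0.20 ± 0.22 with the no-feature share in the fit. Among the netrins NTN4 still had the lowest p-value in that fit, and the highest log2 change of a netrin was 1.835. NTN4 had 37.7, 34.8, 75.4 and 10.1 CPM in females and 40.9 and 13.4 CPM in males of the treated line, and 8.0, 5.23, 21.1 and 26.9 CPM in females and 11.8 and 11.3 CPM in males of the control line. Its lines overlapped. The lowest p-values of the other families belonged to UNC5C_087341, EPHA4_054454, ephb4a, SLIT1_044954, efna3a, EFNB1, NRP1 and PLXNB1_075821, at log2 changes of 0.33, 0.10, 0.25, 0.60, -0.46, 1.05, 0.39 and 0.31 (edgeR adjusted p 0.609 to 0.901). The second IDs UNC5C_099133, EPHA4_010767, SLIT1_099446 and PLXNB1_017211 were at 0.681, -0.055, 0.201 and -0.118.

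The 12 members called in F0 males had log2 changes of -0.20 to 1.12 in F2 females, none with an adjusted p below 0.806. SEMA6A had a log2 change of -0.02 ± 0.16 in F2 females and -0.09 ± 0.23 in F2 males, against 0.66 ± 0.13 in F0 males. The difference of the F0 effect from the F2 female effect was 0.68 ± 0.21, with an unadjusted p of 0.00283 and an adjusted p of 0.308 (edgeR interaction contrast). NRP1 had a log2 change of 0.43 ± 0.27 in F2 females, and its difference was -1.01 ± 0.33 (edgeR interaction contrast, adjusted p = 0.331). Sex and generation differ together in this contrast. Both genes were among those called in F0 males, and the contrast uses those F0 values again. No member passed in any of the 3 interaction contrasts: 21 of 98 members and 2456 of 21082 genes had an unadjusted p below 0.05 for F0 males against F2 females, 6 members and 1303 genes for F0 males against F2 males, and 1 of 94 members and 291 of 19463 genes for F2 females against F2 males.

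Between the sexes in F2, 0 of 94 members passed, against 0.0154% of 19463 genes, 3 genes in all and each lower in females (edgeR); 3 members and 1006 genes had an unadjusted p below 0.05, and DESeq2 called 34 genes and 0 members. PLXNC1 had the lowest p-value, at 7.72 to 15.3 CPM in the 8 females and 5.25 to 7.04 CPM in the 4 males. The sexes did not overlap, and the log2 change was 0.73 ± 0.28 (SE; edgeR adjusted p = 0.867). The next were sema4ab at 0.91 ± 0.35 and EPHA4_054454 at -0.23 ± 0.10 (edgeR adjusted p = 0.883 and 0.893). For sema4ab the females lay at 6.3 to 21.8 CPM, highest in treated-line female 24, and the males at 5.31 to 6.82 CPM. EPHA4_054454 lay at 235.8 to 325.4 CPM in females and 314.4 to 352.8 CPM in males. In both genes the sexes overlapped. In the other families UNC5D_061541, EPHB3_031548, robo4, SLIT1_099446, efna3a, EFNB2_020164, NTN1_105112 and NRP2_096546 came first. Their log2 changes were -1.65, -0.13, -0.32, 0.37, 0.23, 0.14, 0.79 and -0.16 (edgeR adjusted p 0.97 to 0.999). That of UNC5D_061541 had a standard error of 1.33. The second IDs UNC5D_092722, EPHB3_103576 and SLIT1_044954 were at -0.081, 0.031 and -0.22. EFNB2_074050, NTN1_022531, NRP2_038446 and EPHA4_010767, also second IDs, were at 0.177, 0.269, -0.083 and -0.109.

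F2 males differed from F0 males in 4 members, 4.08% of 98 tested, against 4.28% of 21082 genes tested (edgeR). The contrast took the mean of the treated and control groups in each generation, so exposed F0 males were part of the reference. Of the 3 guidance genes among them, all were lower in F2 males; the fourth was UNC50, which was higher. SLIT1_044954, a repellent ligand, had 13.7, 7.83, 11.4 and 8.62 CPM in F2 males and 6.93 to 40.0 CPM in F0 males. Treated male 16, at 6.93 CPM, was below all 4 F2 males, and the other F0 males were above them. The log2 change was -1.41 ± 0.35 (SE, n = 4 and 12, edgeR adjusted p = 0.0267). The second SLIT1 ID went the other way and did not pass, at 0.51 ± 0.25 (edgeR adjusted p = 0.25). The class 3 semaphorin sema3h had 11.1, 11.3, 7.54 and 8.12 CPM in F2 males and 8.12 to 24.3 CPM in F0 males, where treated male 16 was again the lowest, a log2 change of -1.05 ± 0.28 (SE; edgeR adjusted p = 0.0327). NRP1 had 46.4, 44.8, 39.6 and 34.7 CPM in F2 males and 27.1 to 91.4 CPM in F0 males, with treated male 16 at the lower end, a log2 change of -0.75 ± 0.22 (SE; edgeR adjusted p = 0.0487). UNC50 had 29.5, 25.0, 31.1 and 29.0 CPM in F2 males and 12.4 to 22.3 CPM in F0 males, without overlap, at 0.65 ± 0.14 (SE; edgeR adjusted p = 0.0147). Semaphorins had a median log2 change of -0.57 over 30 tested, with 26 below 0, and ephrins B one of -1.17 over 5, all below 0. These were the most negative family medians. The others ran from -0.40 in neuropilins to 0.12 in Robo receptors. Of the ephrins B, EFNB1 and efnb3a had few reads in F2 males, at 1.49 to 2.93 and 0.613 to 1.09 CPM. The median of all members was -0.20, with 70.4% of them below 0. The median of all genes was -0.05, with 53.7% of them below 0. In the families without a call the lowest p-values belonged to UNC5D_092722, EPHA6, ephb6, robo4, EFNA1_030326, EFNB1, NTN4 and PLXNB1_075821, at log2 changes of 0.13, -0.20, -1.12, 0.33, -1.65, -1.26, -1.09 and -0.52 (edgeR adjusted p 0.0683 to 0.527). The second IDs of these symbols, EFNA1_018787, PLXNB1_017211 and UNC5D_061541, were at 0.02 ± 0.25, 0.24 ± 0.12 and -0.52 ± 0.69. None of the 4 called members passed when any 1 of the 4 F2 males was left out. Generation and whatever differed between the 2 collections of fish cannot be told apart.

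**Figure D5:**
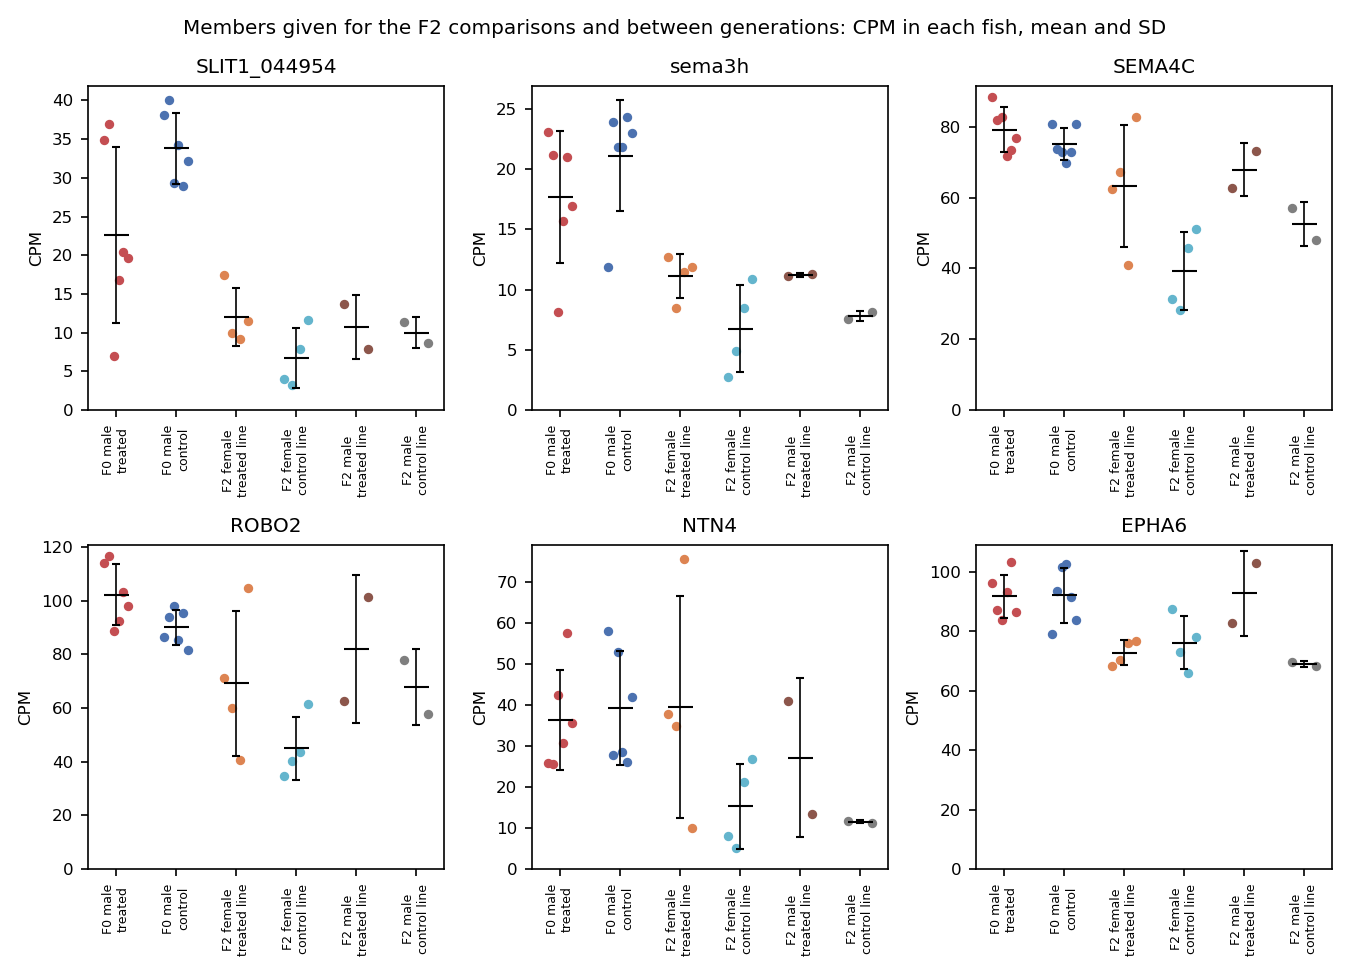
CPM (vertical axes from 0) in each fish of the 6 groups (points), with the mean and SD (bars), of SLIT1_044954 and sema3h, which were lower in F2 than in F0 males, and of SEMA4C, ROBO2, NTN4 and EPHA6, which did not pass in any comparison. The F2 groups lie low in SLIT1_044954 and sema3h, whichever line they are from.

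Genes around the guidance system were read from 3 lists, and 12.9% of the signalling genes, 14.5% of the other cues and receptors and 16.0% of the adhesion molecules were called in F0 males, against 11.4% of all genes tested. Of 62 tested genes of guidance signalling inside the cell, 3 were higher and 5 lower in treated than in control F0 males, with a median log2 change of -0.06. They included PAK1, a kinase of the actin skeleton, at 0.42 ± 0.09 (edgeR adjusted p = 0.0158), and DPYSL4, a collapsin response mediator, at -0.64 ± 0.12 (edgeR adjusted p = 0.015). Of 62 tested other guidance cues and receptors, 3 were higher and 6 lower, among them LRIG1 at -0.89 ± 0.18 and rtn4b, of the Nogo family, at 0.50 ± 0.12 (edgeR adjusted p = 0.0158 and 0.0244). Of 25 axonal adhesion molecules, 1 was higher and 3 lower, among them cntn1a at 0.40 ± 0.09 and ALCAM at -0.42 ± 0.09 (edgeR adjusted p = 0.0221 and 0.0158). None of these passed with the no-feature share in the fit. In F2 males over F0 males, where 4.28% of all genes were called and 10 to 2315 genes with 1 fish left out, 5 of the 25 adhesion molecules were lower and 0 higher, among them l1cama at -1.26 ± 0.35 and cntn2 at -1.03 ± 0.27 (edgeR adjusted p = 0.0468 and 0.0327). Of 64 signalling genes 1 was higher, the small GTPase gene rhoab at 0.41 ± 0.12 (edgeR adjusted p = 0.0456), and 4 were lower. These included the collapsin response mediators CRMP1, DPYSL2 and DPYSL3, at log2 changes of -1.47 ± 0.38, -0.70 ± 0.16 and -0.57 ± 0.13 (edgeR adjusted p = 0.0327, 0.0153 and 0.0187). Of 64 other cues and receptors 2 were higher, rtn4a at 0.30 ± 0.08 and rtn4b at 0.51 ± 0.13 (edgeR adjusted p = 0.0351 and 0.0274), and 3 were lower, the teneurins TENM2 and tenm3 and the receptor phosphatase ptprdb. In the comparisons between F2 lines 0 genes of these lists passed (edgeR).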

How the data were processed

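Whole-brain RNA was sequenced from 24 fish in 31 runs. The deposited files are raw counts of reads per Ensembl gene, made by the authors; per the submitters' processing notes, the tools were STAR 2.7, HTSeq 0.11.2, cutadapt 2.1, DESeq2 1.24.0 and bcl2fastq, with GRCz11 (danRer11). Whether counting used strand, and with which annotation release, is not stated there, so antisense and overlapping genes are uncertain. Lines that name no gene stayed out of library sizes. Both runs of each of 7 fish were summed: their chi-square, divided by its degrees of freedom over genes with a mean of at least 10 reads, was 1.03 to 1.19, against 18.31 to 114.99 between fish of a group.

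Genes were tested with edgeR 4.0.16 (R 4.3.3; glmQLFit with robust fitting, glmQLFTest, TMM, filterByExpr with minimum count 10), adjusted by Benjamini-Hochberg over all genes tested, threshold 0.05. The fit for F0 males held the 12 F0 fish, that for F2 the 12 F2 fish, and contrasts across generations over all 24 fish. A standard error is the log2 change over the root of F. Library measures used exact permutation tests (scipy). Alternatives included DESeq2 1.42.0. The scripts were tested on simulated data.

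Members and lists were chosen with earlier results of these data known. Named in each comparison were all members that passed and the lowest p-value of each family without one. Where none passed, the 3 lowest p-values are given with the values of every fish, or with ranges between the sexes. Listed genes were up to 4 per list. Of the other cues and receptors in F2 males over F0 males, all that passed are named. Names in the 3 lists were matched by symbol, without the paralog suffix where needed, and gave 64, 65 and 25 IDs. No sequences were used. Counts of 0 in a fish allow up to 3 reads; this covers counting error only, since reads carry no molecular identifiers.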

Additional observations from a re-analysis of the deposited data

Results flagged for a closer look

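In 88 checks of 22 members in the groups of 4 to 6 fish, 9 found a fish farther from the rest than Dixon's 95% criterion allows; chance gives about 1 in 20. Among F0 males, sema4ab was 16.6 CPM in control male 33 (others 9.6 to 11.7), EFNA5 was 13.3 CPM in treated male 16 (others 18.9 to 20.0), ephb4a was 39.5 CPM in control male 31 (others 49.4 to 52.3), SLIT3 was 19.9 CPM in treated male 2 (others 25.6 to 28.8) and sema3h was 11.9 CPM in control male 3 (others 21.8 to 24.3). Among F2 females, PLXNC1 was 13.9 CPM in treated-line female 6 (others 8.65 to 8.92), EPHB3_031548 was 140.2 CPM in treated-line female 24 (others 216.4 to 224.4), SLIT3 was 30.6 CPM in treated-line female 28 (others 23.2 to 24.4) and UNC50 was 40.0 CPM in control-line female 21 (others 22.2 to 24.8).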

How the results depend on the processing

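In F0 males the 12 members called became 0 with the no-feature share as covariate (all genes 0, against 2060). The count was 1 without treated male 16 and control males 9 and 33, a fit with fewer fish (all genes 42). In a 6-group fit over all 24 fish 2 passed, EPHA4_054454 and SEMA6A, but not ROBO1 or sema4ab (all genes 787). The covariate turned the log2 changes of EFNA1_030326, NRP1 and nrp1b to 0.208, 0.047 and 0.019, and those of SLIT1_044954 and EFNB1, which were not called, to 0.123 and 0.350. DESeq2 gave 18 members, the 12 among them, and 3347 genes. Leaving out 1 fish gave 3 to 17 members (all genes 440 to 3217), fewest without control male 33 or treated male 24 and most without treated male 2; ROBO1, SEMA6A and sema4ab passed each time. In F2 males over F0 males the 4 members called became 15 with DESeq2 and 0 to 9 with 1 fish left out, 9 without treated male 16 and 0 without any 1 F2 male (all genes 10 to 2315). In the F2 line and sex comparisons 0 members passed under every alternative run, while the covariate turned ROBO2 to -0.31 in F2 females, -0.12 in F2 males and -0.20 in both sexes, and PLXNB1_075821 to -0.008 in F2 females. As in F0 males, the share did not overlap between the lines of F2 females, so share and line cannot be told apart there. The interactions, with the covariate added after seeing the data, stayed at 0 members. The arms within a generation share no fish number, so no paired fit of the exposure or line effects was possible. Across generations 5 numbers recur, each in a fish of the same arm; the labels do not say that a number ties fish, and deviations from the group means correlated at -0.07 to 0.02 (21082 genes). With the number as a replicate block, added after seeing the data over these 10 fish with 1 residual degree of freedom, 4 members (0 higher) and 676 genes were called in F2 males over F0 males, SLIT1_044954 as the only one of the 4 called without the block, and 0 members in the interactions of F0 males with F2 males and with F2 females. The 2 F2 males a line and the depth of 12.2 M reads in the shallowest fish limit what could be detected.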
